A study of Homo sapiens with 4 samples.

Results

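The interferon regulatory factors (IRFs) are a family of transcription factors, and 8 of its genes (IRF1, IRF2, IRF3, IRF4, IRF5, IRF7, IRF8 and IRF9) were followed here, chosen by gene symbol from the 23622 genes of the table. All 8 were among the 14120 genes that had enough reads to be tested. The cells were MV4-11, an established human acute myeloid leukemia line, and the study asked how this line depends on IRF1. 2 libraries carried a control hairpin (sh-NC, labelled NC, untreated and of wild-type genotype) and 2 carried a hairpin against IRF1 (sh-IRF1, also labelled as wild-type genotype), all made from total RNA. The methods describe lentiviral delivery and 3 days of puromycin selection for the knockdown lines, and elsewhere the study speaks of cells infected with sh-NC or sh-IRF1. The sh-IRF1 libraries still held IRF1 transcripts, so the comparison is of a partial loss in a selected pool of cells. The name sh-NC is that of the study and of the table's columns. The methods state in general that experiments were repeated independently, but no source says it of these libraries or names separate cultures, so the p-values measure only the spread between these libraries, which may be technical.

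The members share a DNA-binding domain with a row of tryptophans that reads the interferon-stimulated response element, a repeat of GAAA separated by 2 bases. IRF3, IRF5 and IRF7 sit in the cytoplasm until kinases below the sensors of foreign nucleic acid phosphorylate them, and they then switch on interferon genes. IRF9 acts below the interferon receptors as part of the complex ISGF3. IRF1 is itself induced by interferon and activates transcription, IRF2 occupies the same elements and mostly opposes it, and IRF4 and IRF8 bind with partners such as PU.1 and direct the fate of lymphoid and myeloid cells, IRF8 being a main factor of the monocyte and dendritic cell lineages.

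The sequences behind the knockdown are shown because every comparison rests on them. The study designed 2 hairpins against IRF1, and which of them each sh-IRF1 library carried is not given in the sources used here. The target sites are printed 5′ to 3′ on the strand of the IRF1 transcript.

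sh-IRF1 hairpin 1: gcaccagtgatctgtacaact

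sh-IRF1 hairpin 2: ggaaattacctgaggacatca

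Each site is 21 bases long and lies in the coding sequence of IRF1 (ENSG00000125347), which spans chr5:132440440-132508719 on the minus strand of GRCh38 in the GENCODE 44 annotation. The site of hairpin 1 is in exon 7 at chr5:132486284-132486304, bases 848 to 868 of the canonical transcript of 3554 bases. The site of hairpin 2 is in exon 8 at chr5:132485672-132485692, bases 926 to 946. Among all annotated transcripts, each site had an exact match in transcripts of 1 gene only, IRF1, where they were held by 12 and 13 of its 50 annotated transcripts.

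The best ungapped match of each site was then sought in the transcripts of the other 7 members. The longest agreement was 15 of the 21 bases, and it was reached by hairpin 1 in IRF4, IRF7 and IRF9. For IRF2, the other member that fell after the knockdown, the best site for hairpin 2 matched 13 bases, within the range of 12 to 14 bases for that hairpin over the 7 genes. It is printed with the mismatched bases in capitals. The search counted agreement over all 21 bases and did not seek shorter matches, and whether a hairpin acted on IRF2 was not tested.

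IRF2, best match to hairpin 2: ggaaaGAaAcCAaAgacaGAa

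Each library held between 17635908 and 18695337 reads assigned to genes, recovered from the deposited values, which are reads divided by 1 size factor per library and are called normalized counts here. All 11 listed markers of the myeloid line had over 3 reads in at least 1 library, and they summed to 38584 and 38538 normalized counts in sh-NC and 34293 and 33824 in sh-IRF1, sums in which FLT3 and CD4 weigh most. Of the 11, 2 were higher, 5 were lower and 4 did not pass the test described below. Among all genes tested, 20.3% were higher and 21.9% were lower. LYZ went from 1824 and 1785 to 3276 and 3218 and ITGAM from 118 and 166 to 236 and 202, while MPO went from 477 and 443 to 185 and 158 and CD14 from 38 and 42.1 to 10.9 and 1.87. The T cell marker CD3G had at most 3 reads in a library. Of 4 B cell markers, 3 had over 3 reads in at least 1 library, and they summed to 96.4 and 122 in the controls and 235 and 299 after the knockdown, with CD79A, a B cell receptor chain, at 50.3 and 43.1 and then 190 and 250. The epithelial list was represented by KRT8 and KRT18 with a sum of 254 to 392, and the stromal list by COL1A1 at 0 to 4.97. The erythroid markers listed were not analysed here. The part of these shifts in the IRF values was not tested.

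IRF1 and IRF2 fell, no member rose, and 6 members did not pass the test. A gene was counted as passed at an adjusted p under 0.05 by limma, a linear model fitted to log2(normalized count + 1) over all genes tested, with Benjamini-Hochberg adjustment. For most genes this fit takes the spread largely from other genes of similar level, and only in small part from the gene's own libraries. In this contrast 20.3% of all genes tested were higher and 21.9% were lower in sh-IRF1, so 2 lower members of 8, the hairpin's target among them, is a share close to the background and 0 higher members stands beside a background of 20.3%. With the further condition of a log2 fold change beyond 0.5, as used by the study, 8.27% of genes were higher and 7.56% were lower, and IRF1 was the 1 member left. The median log2 fold change of the 8 members was -0.052, against -0.0019 over all genes tested.

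**Figure D1:**
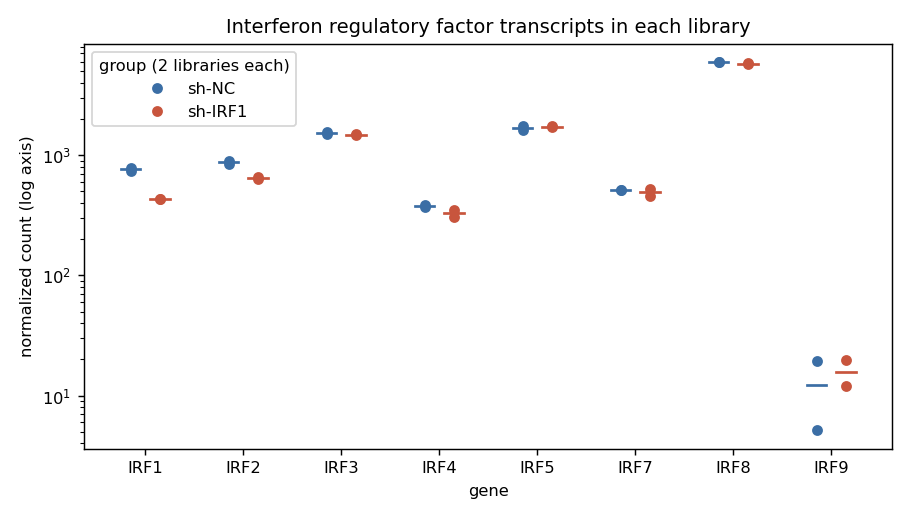
Normalized counts of the 8 IRF genes in each library on a log axis, sh-NC in blue and sh-IRF1 in red, with 1 point per library and a short line at the mean of the 2 libraries. The sh-IRF1 points of IRF1 (430 and 432) and IRF2 (635 and 657) sit below both sh-NC points, while IRF9 lies far under the rest, between 5.13 and 19.7.

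The hairpin's own target was read first. IRF1 had 785 and 738 normalized counts in sh-NC and 430 and 432 in sh-IRF1. Both knockdown libraries lay below both controls, and they differed from each other by far less than the controls did. The means were 762 ± 32.7 (SD, n = 2) and 431 ± 1.58 (SD, n = 2), the second being 56.6% of the first. IRF1 thus had a log2 fold change of -0.82 (SE 0.0904, 95% interval -1.0 to -0.64, limma adjusted p = 1.69e-10), and under all 14 alternative settings it passed with an adjusted p between 4.49e-17 and 6.04e-06. In bulk RNA, fewer cells holding a transcript and less of it per cell cannot be told apart.

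IRF1 lies over an antisense gene, IRF1-AS1, and 22.9% of the bases in its exons are shared with genes on the opposite strand. Whether the counting used strand is not given in the sources used here, so reads in the shared bases could belong to either. IRF1-AS1 itself had 21 and 33 reads in sh-NC and 30 and 22 in sh-IRF1. These counts overlapped, and its log2 fold change of -0.12 (SE 0.412, limma adjusted p = 0.842) did not pass.

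IRF2 (ENSG00000168310, chr4:184385702-184474558, minus strand) is the factor that competes with IRF1 for its elements. It had 839 and 901 normalized counts in sh-NC and 635 and 657 in sh-IRF1, again with no overlap between the groups. The means were 870 ± 43.6 (SD, n = 2) and 646 ± 15.7 (SD, n = 2), or 74.2% of control. IRF2 fell by 0.43 on the log2 scale (SE 0.0797, 95% interval -0.59 to -0.27, limma adjusted p = 1.64e-05). None of its exon bases are shared with another annotated gene, and it passed under all 14 alternatives, with a log2 fold change between -0.48 and -0.38 and an adjusted p between 1.22e-06 and 0.00273.

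Because IRF1 and IRF2 act on the same elements in opposite ways, their balance was taken as 1 value per library. Per base of exon, IRF1 stood at 0.513 and 0.449 of the IRF2 level in sh-NC and at 0.371 and 0.36 in sh-IRF1. The ratio was lower in both knockdown libraries, by 0.39 on the log2 scale. IRF1 was the hairpin's target, so a lower ratio was built into the comparison unless IRF2 fell as far. The difference restates the changes of the 2 genes given above. An exact two-sided permutation test gave p = 0.33, which is the smallest value that 2 libraries against 2 can give, so this test could not pass at 0.05 whatever the ratios were. With the canonical transcript as the length, the ratio was 0.594 and 0.521 in sh-NC and 0.43 and 0.418 in sh-IRF1, with the same log2 difference.

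**Figure D2:**
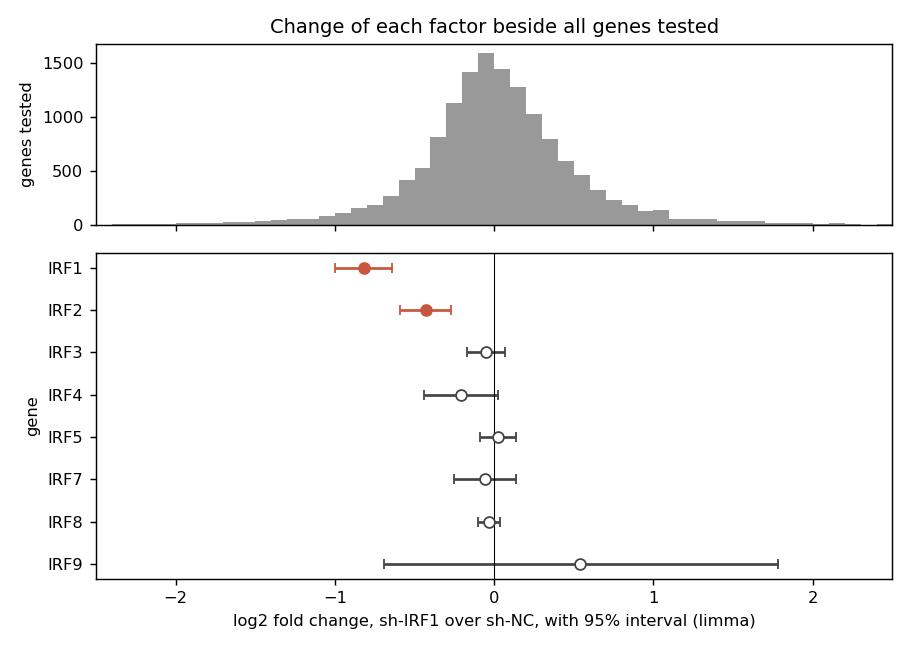
Log2 fold change of sh-IRF1 over sh-NC, as a histogram of all 14120 genes tested above and as points with 95% intervals for the 8 IRF genes below, filled where limma's adjusted p is under 0.05. The intervals of IRF1 (-1.0 to -0.64) and IRF2 (-0.59 to -0.27) lie below 0, those of the other members include 0, and the far tails of the histogram outside the axis are not drawn.

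The factors that are activated by phosphorylation showed no called difference. IRF3 (ENSG00000126456, chr19:49659569-49665875, minus strand), which starts the first wave of interferon beta, had 1501 and 1563 normalized counts in sh-NC and 1458 and 1503 in sh-IRF1. The groups overlapped by a small margin. Its log2 fold change of -0.049 had a 95% interval of -0.17 to 0.067 (limma adjusted p = 0.53), and 19.3% of its exon bases lie under BCL2L12 on the other strand.

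IRF5 (ENSG00000128604, chr7:128937457-128950038, plus strand), which acts below the endosomal Toll-like receptors, had 1749 and 1632 normalized counts in sh-NC and 1739 and 1698 in sh-IRF1. Both knockdown values fell between the controls. The log2 fold change was 0.024 (95% interval -0.087 to 0.14, limma adjusted p = 0.759), and without sh-NC replicate 2 it was -0.026.

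IRF7 (ENSG00000185507, chr11:612553-615983, minus strand) amplifies type I interferon and is itself induced by it. It had 509 and 512 normalized counts in sh-NC and 460 and 525 in sh-IRF1, so the knockdown libraries lay on either side of the controls. The log2 fold change was -0.055 (95% interval -0.25 to 0.14, limma adjusted p = 0.691), and it turned to 0.041 without sh-IRF1 replicate 1. The 95% intervals of IRF3, IRF5 and IRF7 all lay between -0.25 and 0.14 on the log2 scale.

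The lineage factors differed in how tightly they were measured. IRF8 (ENSG00000140968, chr16:85899116-85922606, plus strand) had 5900 and 5904 normalized counts in sh-NC and 5731 and 5823 in sh-IRF1. These groups did not overlap, but the gap was small: the log2 fold change was -0.031 (95% interval -0.10 to 0.039, limma adjusted p = 0.509). It became 0.014 when libraries were scaled by their total reads, a scaling that moved the median of all genes to 0.042.

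IRF4 (ENSG00000137265, chr6:391739-411443, plus strand), which guides plasma cell and dendritic cell fates, had 386 and 373 normalized counts in sh-NC and 348 and 308 in sh-IRF1. The groups did not overlap, and the knockdown libraries stood further apart than the controls. The log2 fold change was -0.21 (SE 0.115, 95% interval -0.44 to 0.022, limma adjusted p = 0.142), it stayed between -0.30 and -0.12 under the 14 alternatives, and it passed in none of them. Its interval therefore holds values as large as the change of IRF2.

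IRF9 (ENSG00000213928, chr14:24161234-24168043, plus strand), the DNA-binding part of ISGF3, was close to the limit of detection, with 5 and 19 reads in sh-NC and 12 and 21 in sh-IRF1. Its normalized counts were 5.13 and 19.5 in sh-NC and 11.9 and 19.7 in sh-IRF1. The controls spanned both knockdown libraries except by a margin of under 1 count at the top. Its log2 fold change of 0.54 (SE 0.613, 95% interval -0.69 to 1.78, limma adjusted p = 0.508) ran from -0.33 to 1.42 when 1 library was left out, so no direction was detectable at this depth. Of its exon bases, 27.2% are shared with other annotated genes and 23.9% with genes on its own strand.

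**Figure D3:**
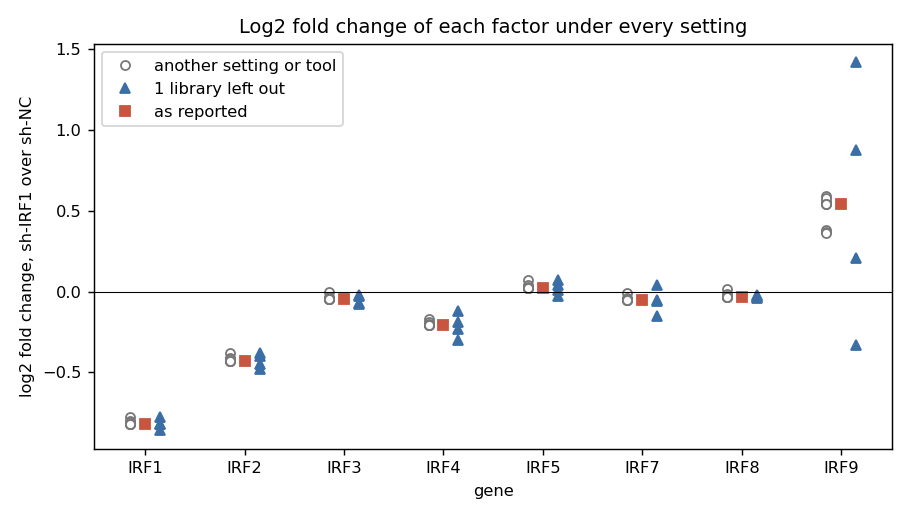
Log2 fold change of each IRF gene (vertical axis) as reported (red squares), under 10 other scalings, filters, pseudocounts, models or tools (open circles) and with 1 of the 4 libraries left out (blue triangles). IRF1 (-0.86 to -0.78) and IRF2 (-0.48 to -0.38) keep to narrow bands under 0, whereas IRF9 spreads from -0.33 to 1.42.

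To compare members with each other, reads were divided by the length of all annotated exons of the gene and by the depth of the library (FPKM). IRF8 stood highest, at 41.6 and 41.5 FPKM in sh-NC and 41.5 and 42.4 in sh-IRF1, and made up 40.7% to 42.3% of the summed level of the family in each library. IRF3 followed with group means of 22.3 and 22.2 FPKM. IRF5 came next at 13.1 and 13.8, then IRF7 at 10.8 and 10.7. With this length, the most abundant transcripts of the family were those of 1 lineage factor and the 3 factors that sensors activate, and with canonical lengths IRF2 stood above IRF7.

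IRF2 had a mean level of 7.14 FPKM in sh-NC and 5.47 in sh-IRF1. IRF4 stood at 3.51 and 3.13, IRF1 at 3.43 and 2.00, and IRF9 at 0.105 and 0.139. The order of the 8 genes was the same in both groups. Neighbours in the order did not overlap between libraries of a group, with the exception of IRF4 and IRF1 in sh-NC, which were 3.57 and 3.45 against 3.54 and 3.32. In sh-IRF1 this pair was separate, with IRF4 at 3.32 and 2.95 and IRF1 at 1.99 and 2.01.

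The share of IRF1 in the summed family level was 3.47% and 3.25% in sh-NC and 2.03% and 1.99% in sh-IRF1. For IRF2 it was 6.77% and 7.24% in sh-NC and 5.47% and 5.53% in sh-IRF1. Both genes are minor parts of the family's transcripts on this scale. The order depends on the length used: the exons of IRF1 cover 12265 bases over all its transcripts but 3554 in the canonical one. With canonical lengths IRF1 had 11.8 FPKM in sh-NC and stood above IRF4 at 3.94, IRF2 at 21.3 stood above IRF7 at 14.6, and 4 of the 8 genes kept their place, IRF8 at 122 FPKM still the highest.

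**Figure D4:**
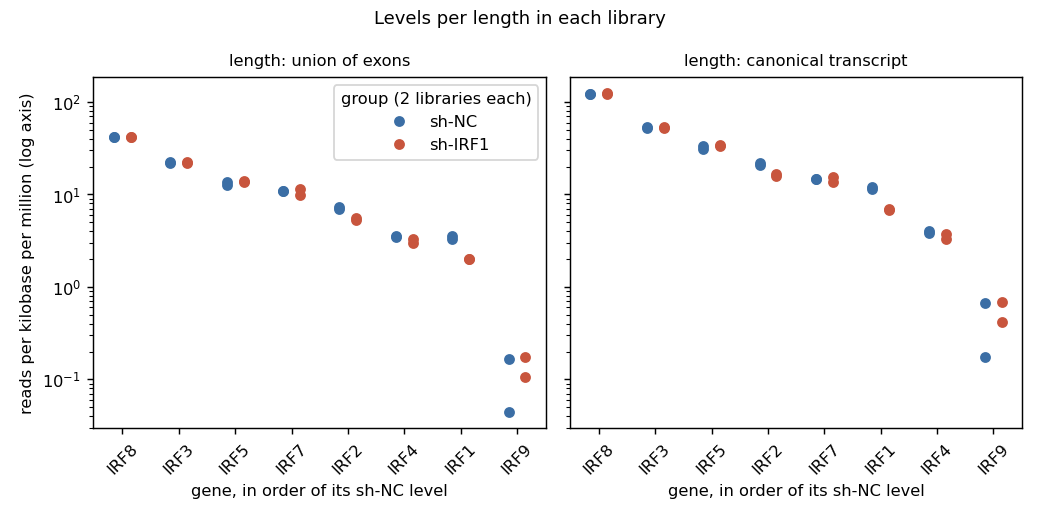
Level of each IRF gene per length (FPKM, log axis) in each library, with genes in order of their sh-NC level, using the union of exons on the left and the canonical transcript on the right. IRF8 is highest and IRF9 lowest with either length, while IRF1 moves from below IRF4 (3.43 against 3.51) to above it (11.8 against 3.94).

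Promoter sequence could be read for 5 members. RefSeq promoters of GRCh38.p14, from 250 bases before to 50 after the start site, were held for IRF1, IRF4, IRF5, IRF8 and IRF9, 9 start sites in all. The core of the interferon-stimulated response element, GAAA, any 2 bases and GAAA again on either strand, was in 0 of these 9 windows and in 3.57% of all 35116 promoters of that length. The gamma-activated site, TTCNNNGAA, which reads alike on both strands and can overlap the first motif at its GAA, was in 2 of the 9 and in 7.66% of all. The 2 matches, in IRF1 and IRF9, are shown with 10 bases on either side and the motif in capitals, since they are the motif matches found among the members.

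IRF1, chr5:132490879-132490907, minus strand, motif 124 bases before the start site: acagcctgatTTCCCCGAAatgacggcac

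IRF9, chr14:24161192-24161220, plus strand, motif 63 bases before the start site: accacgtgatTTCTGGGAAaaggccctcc

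These matches are descriptions of letters and say nothing of binding in these cells. IRF1 was the target of the hairpin and IRF9 had at most 21 reads in a library, so the pair does not tell how promoters with the motif responded.

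The genes around the factors were read from lists written from general knowledge, 96 tested genes in all. Of these, 30 were higher, 26 were lower and 40 did not pass, with a median log2 fold change of 0.028. These are 31.2% and 27.1%, beside a background of 20.3% and 21.9%, and no test of the lists was run. The counts of each list below stand beside that same background. Without TLR8 and OAS3, which had values under 10 in both libraries of 1 group, 29 of 94 were higher and 26 were lower. Genes are named mainly as those with the smallest p in either direction of their list.

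Kinases and adaptors that lead to phosphorylation of IRF3, IRF5 and IRF7 moved both ways. Of 17, 5 were higher (29.4%), 4 were lower (23.5%) and 8 did not pass (median 0.047). TBK1, the kinase of IRF3 and IRF7, had 745 and 662 normalized counts in sh-NC and 731 and 675 in sh-IRF1, with -0.00022 as its log2 fold change (SE 0.0842). IRAK1, which acts below MyD88, rose from 8639 and 8606 to 10053 and 10060, by 0.22 on the log2 scale (SE 0.0303, limma adjusted p = 3.59e-08). STING1, the adaptor for cytosolic DNA, fell from 3031 and 2967 to 2422 and 2406, a log2 change of -0.31 (SE 0.0452, limma adjusted p = 1.25e-07). SLC15A4 and TASL, which together recruit IRF5, went opposite ways, with log2 fold changes of 0.57 and -0.16 (limma adjusted p = 5.74e-08 and 0.0268).

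Of the 9 genes listed here as sensors, with the receptor carrier UNC93B1 counted among them, 7 were tested. Among the 6 that reached the filter in both groups, 2 were higher (33.3%), 3 were lower (50%) and 1 did not pass. IFIH1, which codes for the RNA sensor MDA5, had 176 and 177 normalized counts in sh-NC and 370 and 382 in sh-IRF1. It rose by 1.09 on the log2 scale (SE 0.133, limma adjusted p = 2.43e-09). UNC93B1, which carries Toll-like receptors to endosomes, fell from 5766 and 5929 to 4228 and 4121, a log2 change of -0.49 (SE 0.037, limma adjusted p = 2.42e-15). TLR8, left out of this count, had 4.1 and 0 normalized counts in sh-NC and 12.9 and 12.2 in sh-IRF1 and reached the filter only through the knockdown libraries. Without sh-IRF1 replicate 2, 3 sensors passed in place of 6, TLR8 included in the 6. The 8 interferon genes listed were not analysed here.

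Of the 7 interferon receptor chains and Janus kinases, 1 was higher (14.3%), 3 were lower (42.9%) and 3 did not pass (median -0.0066). The number that passed dropped from 4 to 2 without sh-NC replicate 1, without sh-IRF1 replicate 2, with scaling by total reads and with DESeq2. TYK2 rose from 3749 and 3713 to 4167 and 4204 (log2 fold change 0.17, SE 0.0394, limma adjusted p = 0.000536). JAK1, the kinase shared by the receptors of all interferon types, fell from 2484 and 2463 to 1956 and 1860 (log2 fold change -0.38, SE 0.0496, limma adjusted p = 1.7e-08).

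Among 14 nuclear partners and cofactors 4 were higher (28.6%), 4 were lower (28.6%) and 6 did not pass (median 0.098). STAT2, a subunit of ISGF3, had 609 and 567 in sh-NC and 623 and 700 in sh-IRF1 and did not pass (limma adjusted p = 0.128). Of the partners of IRF4 and IRF8, SPI1, which codes for PU.1, rose by 0.17 on the log2 scale (SE 0.0353), and BATF3, a dendritic cell factor, had a log2 fold change of -0.75 (SE 0.165, limma adjusted p = 0.000204).

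The 3 genes for IRF2-binding corepressors did not move as one. IRF2BP2 fell from 12979 and 13705 normalized counts to 10882 and 10472 (log2 fold change -0.32, SE 0.0301, limma adjusted p = 1.59e-12). IRF2BPL fell from 822 and 840 to 581 and 554 (log2 fold change -0.55, SE 0.0827, limma adjusted p = 2.91e-07). IRF2BP1 had 2185 and 2092 in sh-NC and 2229 and 2483 in sh-IRF1, and its log2 fold change of 0.14 passed (limma adjusted p = 0.0272). IRF2BPL and IRF2BP1 were added to the named genes after their values were seen, as were TBK1, SLC15A4, TASL, TLR8, STAT2, SPI1, BATF3, USP18, CIITA, CYBB, BCL6, ISG15 and OAS3. So were MX1, MEF2D and RUNX2.

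Of 12 negative regulators 4 were higher, 4 were lower and 4 did not pass, and without sh-IRF1 replicate 1 the number that passed was 5 in place of 8. TRIM28, a ligase known to restrain IRF7, rose from 23044 and 23066 to 26086 and 25948 (log2 fold change 0.17, SE 0.0236, limma adjusted p = 2.88e-08). ATF4, a stress factor known to repress IRF7, fell from 9878 and 10049 to 7135 and 6889 (log2 fold change -0.51, SE 0.0318, limma adjusted p = 2.88e-18). USP18, which removes ISG15 from proteins and dampens the interferon receptor, fell from 218 and 207 to 104 and 118 (log2 fold change -0.93, SE 0.171, limma adjusted p = 1.31e-05).

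Genes known as IRF1 targets moved both ways, with 27.3% higher and 27.3% lower beside 20.3% and 21.9% of all genes tested. Of 17 listed, 11 were tested, and 3 were higher, 3 were lower and 5 did not pass, with a median log2 fold change of -0.022, and without sh-IRF1 replicate 1 the number that passed was 3 in place of 6. CTSS, a lysosomal protease, fell from 1528 and 1478 to 1221 and 1261 (log2 fold change -0.28, SE 0.0602, limma adjusted p = 0.00018). BST2, which tethers budding viruses, rose from 1429 and 1339 to 1701 and 1672 (log2 fold change 0.29, SE 0.0578, limma adjusted p = 6.24e-05). CIITA, the switch for class II antigen presentation, is listed for IRF1 and for IRF8 and had a log2 fold change of 0.27 (limma adjusted p = 0.012).

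IRF8 itself did not pass, and of 8 tested genes known as its targets 4 were higher, 3 were lower and 1 did not pass (median 0.15). These shares of 50% and 37.5% come from few genes and stand beside 20.3% and 21.9% of all genes tested. PML rose from 1528 and 1470 to 1884 and 1893 (log2 fold change 0.33, SE 0.0548, limma adjusted p = 1.84e-06). BCL2, which blocks apoptosis, fell from 2988 and 2964 to 2055 and 2109 (log2 fold change -0.52, SE 0.0466, limma adjusted p = 5.53e-13). The widest moves were those of CYBB, the phagocyte oxidase chain, at -1.57 (SE 0.224, limma adjusted p = 9.7e-08) and of BCL6, a repressor, at 1.63 (SE 0.273, limma adjusted p = 2.74e-06).

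Interferon-stimulated genes, which carry response elements for the family, had the highest list median, 0.35. Of 17 tested, 5 were higher (29.4%), 1 was lower (5.88%) and 11 did not pass, beside 20.3% and 21.9% of all genes tested. Without OAS3 the numbers were 5, 1 and 10 of 16, with a median of 0.37. The median of 0.35 is the value of MX1, which did not pass (SE 0.477). MX1 had 17 and 15 reads in sh-NC and 20 and 24 in sh-IRF1. IFI6 had 287 and 195 normalized counts in sh-NC and 459 and 477 in sh-IRF1 (log2 fold change 0.98, SE 0.131, limma adjusted p = 2.24e-08), and 23.1% of its exon bases are shared with another gene. ISG15, the ubiquitin-like modifier, had 236 and 149 in sh-NC and 275 and 289 in sh-IRF1 (log2 fold change 0.58, SE 0.157, limma adjusted p = 0.00205). XAF1, a promoter of apoptosis, was the 1 gene that fell, from 408 and 384 to 196 and 213 (log2 fold change -0.95, SE 0.127, limma adjusted p = 2.19e-08), with 38.3% of its exon bases under a gene on the other strand. Of the 11 that did not pass, OAS3 was among the lowest, with 12.3 and 13.4 normalized counts in sh-NC and 1.99 and 9.37 in sh-IRF1 (log2 fold change -1.31, SE 0.756), and a difference of that size was not detectable at this depth.

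**Figure D5:**
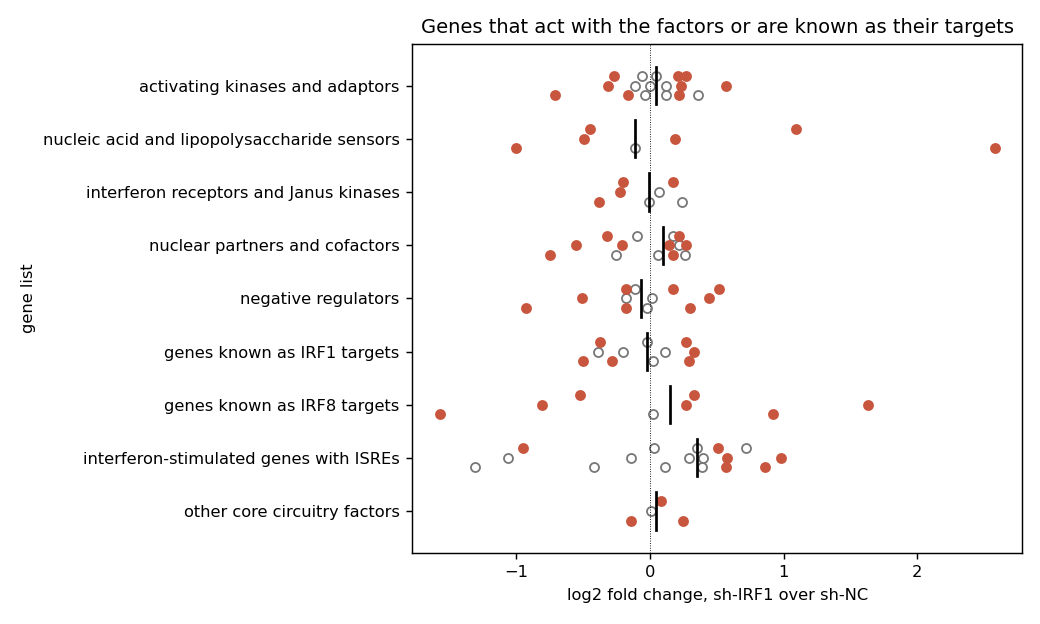
Log2 fold change of sh-IRF1 over sh-NC (horizontal axis) for each tested gene of 9 lists, filled where limma's adjusted p is under 0.05 and open where it is not, with a black line at each list's median. Every list holds filled points on both sides of 0, and the medians run from -0.11 (sensors, -0.28 without TLR8) to 0.35 (interferon-stimulated genes).

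The factors that the study places in one regulatory circuit with IRF1 are the last set. ETV6 rose from 2683 and 2743 to 3301 and 3134 (log2 fold change 0.25, SE 0.0444, limma adjusted p = 1.01e-05). ELF1 fell from 7002 and 7172 to 6598 and 6298 (log2 fold change -0.14, SE 0.0341, limma adjusted p = 0.000962). MEF2D rose from 10732 and 10909 to 11464 and 11468 (log2 fold change 0.084, SE 0.0289, limma adjusted p = 0.0169). RUNX2 had 1896 and 1818 in sh-NC and 1795 and 1940 in sh-IRF1 and did not pass (log2 fold change 0.0075, SE 0.0539). The study reports that knockdown of any factor of the circuit lowered the mRNA and protein of the other members, with protein read by western blot. It does not state that the mRNA changes of that report were measured in these libraries, so the measures may differ. Here ELF1 fell as in that report, ETV6 and MEF2D went the other way, and no fall of RUNX2 was called. The reason was not tested. Of the 4 genes 2 were higher, 1 was lower and 1 did not pass, and without sh-IRF1 replicate 2 the number that passed was 1 in place of 3. The log2 fold changes of the 4 ran from -0.14 to 0.25, beside -0.43 for IRF2, and the difference between them was not tested.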

How the data were processed

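RNA-seq of MV4-11 cells was re-analysed from 1 table of 4 libraries. Per the labels, reads were aligned with HISAT2 (2.0.5) to hg38; the counter, annotation and use of strand are not given in the sources used here. The authors deposited a signal, gene reads scaled by 1 size factor in each library. All values were whole multiples of that step (100% within 0.001 of a read), so reads were recovered, and 0 further sample columns were left unused. Symbols were matched for 23456 of 23622 genes with GENCODE (44). Genes reaching 10 in 2 or more libraries entered limma (3.58.1, R 4.3.3, trended variance, robust shrinkage) on log2(value + 1). The added 1 shrinks changes of low genes, but the low member IRF9 was 0.54 here against 0.37 with edgeR and 0.36 with DESeq2. The residual degrees of freedom were 2 and the median prior 43. edgeR (4.0.16) and DESeq2 (1.42.0) on recovered reads, other scalings, filters, pseudocounts and left-out libraries were alternatives. Exact tests used scipy (1.17.1). The members and gene lists were chosen with earlier results of these data known. Named by rule were all members, the gene of smallest p in each direction of each list, and the 3 genes nearest in pattern to IRF1 and to IRF2; 1 gene the rule names and 1 hairpin match are not reported here. Replicates of a group differed beyond counting noise (mean chi-square per gene 2.52 and 2.37).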

Additional observations from a re-analysis of the deposited data

How the results depend on the processing

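IRF1 and IRF2 had an adjusted p under 0.05 under each of the 14 alternative fits: 2 to 2 members passed when 1 library was left out, with log2 fold changes of -0.86 to -0.78 for IRF1 and -0.48 to -0.38 for IRF2, and their log2 ratio changed by -0.49 to -0.30. Requiring a log2 fold change beyond 0.5 as well left 1 member, IRF1, and 21 of 56 pathway genes, by its own construction. Chosen after seeing the data, a filter met in both groups left 55 pathway genes. Leaving out 1 library gave 41 to 49 pathway genes. With canonical lengths 4 of 8 members kept their place in the order of levels. Directions of members that did not pass turned for IRF8 (0.014, scaling by total reads) and, with 1 library left out, for IRF9 (-0.33 to 1.42, negative without sh-NC replicate 1), IRF5 (-0.026 to 0.074, negative without sh-NC replicate 2) and IRF7 (-0.15 to 0.041, positive without sh-IRF1 replicate 1); the cause was not tested. Replicate numbers did not pair the libraries: deviations of same-numbered libraries correlated at -0.02 over 14120 genes. The replicate block gave -0.82 for IRF1 (limma adjusted p = 7.99e-17) and -0.43 for IRF2 (limma adjusted p = 1.22e-06) and called 2903 genes higher and 3147 lower, against 2861 and 3092 without it, with no member's call changed. DESeq2 called 2312 higher and 2605 lower. Depth limits IRF9, with 5 to 21 reads.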

Other observations

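The genes whose pattern over the 4 libraries lay nearest to that of IRF1, by Euclidean distance of centred log2 values among 14120 genes, were ENSG00000243829, SLC25A36 and SLC38A2. SLC38A2, an amino acid transporter, had 8463 and 8186 normalized counts in sh-NC and 4584 and 4735 in sh-IRF1, a distance of 0.0431. SLC25A36, a mitochondrial carrier, had 1545 and 1479 in sh-NC and 852 and 881 in sh-IRF1, a distance of 0.0375. ENSG00000243829 had 48.2 and 46.2 in sh-NC and 26.9 and 26.2 in sh-IRF1, a distance of 0.0366. Nearest to IRF2 were AMOTL1, GATAD2B and NAE1, at distances of 0.0244, 0.0277 and 0.0279, with log2 fold changes of -0.41, -0.43 and -0.44. With 4 libraries in 2 groups, such nearness mostly restates a similar fold change.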
